A study of Mus musculus with 76 samples.

Results

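Complex I (NADH:ubiquinone oxidoreductase) was followed through the genes whose symbol starts with *Nduf*, which cover its nuclear subunits and a group of its assembly factors. Every row of the adipose and liver tables with such a symbol and without a -ps suffix was taken, and the 3 rows left out carry the suffix. This gave 48 genes, 40 named as subunits and 8 named as assembly factors (*Ndufaf1* to *Ndufaf8*), of 18964 entries in the table of visceral white adipose tissue (WAT) and 16775 in the liver table. In each tissue 47 of the 48 had a mean normalized count of at least 10 and were tested. *Ndufs6b* was under that level in WAT and *Ndufa4l2* in liver.

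Complex I is the entry point of the mitochondrial respiratory chain. It takes electrons from NADH, passes them along a wire of iron-sulfur clusters to ubiquinone, and pumps protons across the inner membrane. Its core subunits carry the redox groups in the matrix arm and the proton pumps in the membrane arm, the latter encoded by mitochondrial DNA, and a shell of accessory subunits and a set of assembly factors are needed to build and hold it.

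The libraries came from female C57BL/6 mice fed ad libitum that were homozygous for the C allele (Fnip2C/C) or the T allele (Fnip2T/T) of a base in the 3′ untranslated region of *Fnip2*, a partner of folliculin. The C allele was knocked in with Cas9 in early embryos together with a G-to-C change that removed the guide's PAM, so that C/C mice carry both changes, and T/T mice carry the mouse sequence at both. Liver came from 5 C/C and 5 T/T mice, and WAT from 4 C/C and 5 T/T mice, with 1 library per mouse and tissue and 6 mice in both tissues. The labels give neither the age of these mice nor whether they were littermates. Whole tissue was sequenced, so fewer cells of a type and less RNA per cell cannot be told apart.

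Libraries were made with QuantSeq 3′ mRNA-Seq FWD, a kit that sequences only the tail end of each mRNA, and the tables hold counts per gene divided by a size factor of the library. WAT libraries held 4180209 to 6277644 reads and liver libraries 5583041 to 7523200. In WAT the leading principal component held 47.9% of the variance and placed the 4 C/C libraries between -83.0 and -24.1 and the 5 T/T libraries between 22.1 and 59.0. In WAT 6 of 10 adipocyte markers were called lower in C/C and 0 higher, with a median log2 fold change (C/C minus T/T) of -1.10. The summed normalized count of the 10 lay between 73988 and 232377 in C/C and between 112826 and 201383 in T/T. That sum was mostly *Cfd*, not called, with means of 127997 in C/C and 85213 in T/T. Ovary markers summed to 24438 in the WAT of C/C mouse 593 and to at most 121 in every other WAT library. Hepatocyte markers, 2 of 4 called lower, summed to 223 to 699 in C/C and 836 to 2906 in T/T. Macrophage markers, 2 of 7 lower and 1 higher, summed to 2551 to 5171 in C/C and 1974 to 3648 in T/T. Brown adipocyte markers, 0 of 5 called, summed to 552 to 10634 in C/C, highest in mouse 638, and to 559 to 4326 in T/T. Skeletal muscle markers, 0 of 6 called, summed to 2741 in T/T mouse 609 and to at most 269 in every other WAT library. Over all WAT genes tested 17% were called lower and 15.1% higher, and marker lists this short cannot be placed closely against those shares. All WAT libraries of C/C mice carry even RNA numbers in the labels and all those of T/T mice odd ones, so the genotype and whatever the numbers stand for cannot be told apart in WAT. The part of these differences in the results below was not tested.

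Subunit transcripts of complex I moved in both directions in the WAT of C/C mice, with more falls than rises. Of the 39 subunits tested, 20 were lower and 7 higher in C/C, and 12 did not pass (limma on log2(normalized count + 1), Benjamini-Hochberg adjusted p under 0.05). Subunit counts, medians, sums and correlations go by symbol and include *Ndufa4* (lower in C/C WAT), since placed with complex IV. In WAT they also include its paralog *Ndufa4l2* (not called). Among all 12798 WAT genes tested the lower calls made up 17% and the higher calls 15.1%. The median log2 fold change (C/C minus T/T) of the subunits was -0.51, with a range from -3.77 to 1.02, against a median of 0.02 over all genes tested. In 18 subunits every C/C library lay below every T/T library, and in 6 every C/C library lay above, where 13.8% and 12.2% of all genes tested were separated in these directions. The numbers of subunits lower and higher were 15 and 6 without the WAT of mouse 593. The number higher was 4 without C/C mouse 638, T/T mouse 607 or T/T mouse 657.

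**Figure D1:**
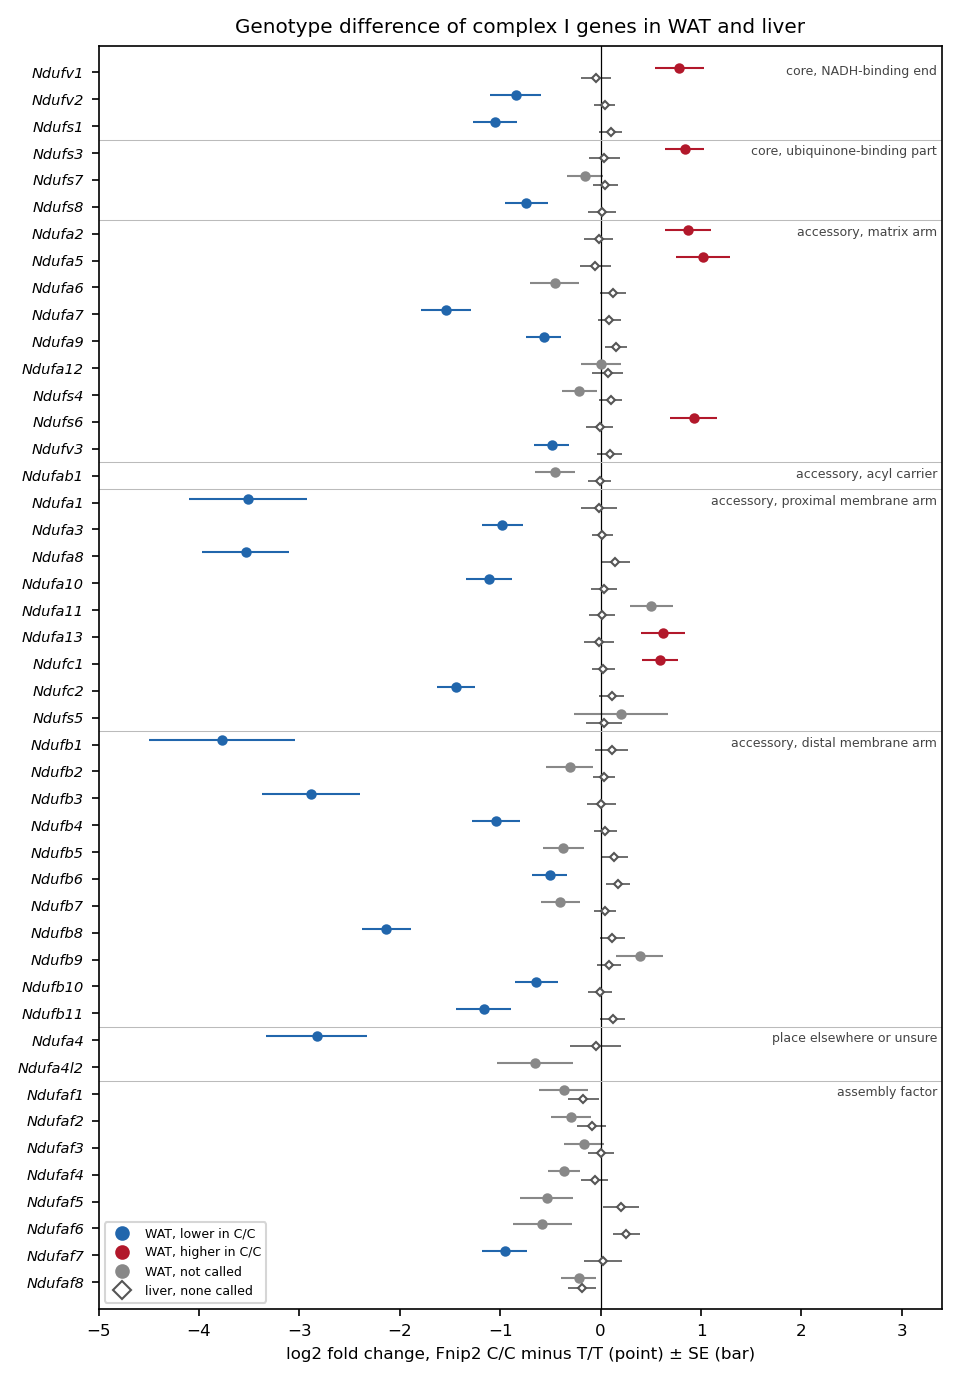
Log2 fold change (C/C minus T/T, point) with its SE (bar) of 46 genes in WAT (circles, coloured by the call) and of those tested in liver (open diamonds), ordered by place in complex I. WAT values run from -3.77 for Ndufb1 to 1.02 for Ndufa5, and the liver subunits lie between -0.05 and 0.17.

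The falls and rises were also counted by the arms of the complex. Among the accessory subunits of the distal membrane arm (*Ndufb1* to *Ndufb11*), 7 of 11 were lower and 0 higher in C/C (median change -0.64). In the proximal membrane arm 5 of 9 were lower and 2 higher (median -0.98). In the matrix arm 3 of 9 accessory subunits were lower and 3 higher (median -0.21). Lists this short cannot be placed closely against the 17% lower and 15.1% higher of all WAT genes tested. The difference between the arms was not tested.

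At the NADH-binding end of the core, *Ndufv1*, which holds the flavin that takes electrons from NADH, rose, and both of its neighbours fell. Library values are given below as normalized counts, for C/C mice 590, 593, 599 and 638 and then for T/T mice 607, 608, 609, 657 and 658. *Ndufv1* had 2629.8, 2648, 3188 and 3767 in C/C and 1480.4, 1652, 2566, 1167 and 2281 in T/T. All C/C values were above the highest T/T value, from mouse 609, by a narrow margin, and the log2 fold change was 0.78 ± 0.25 (SE, adjusted p = 0.0285). *Ndufv2*, an iron-sulfur subunit beside it, had 401, 255, 376 and 326 against 676, 487, 389.6, 612 and 1013. The lowest T/T library, mouse 609, lay below the highest C/C library, and the change was -0.85 ± 0.25 (adjusted p = 0.0234). *Ndufs1*, the largest subunit and the next carrier of iron-sulfur clusters, had 292, 173, 344 and 269 against 536, 412, 621, 523 and 662. The groups did not overlap, and it was 2.07-fold lower in C/C (log2 fold change -1.05 ± 0.22, adjusted p = 0.00383). The *Ndufv1* call was lost without C/C mouse 599 (adjusted p = 0.0677) or 638 (0.0801), or without T/T mouse 607 (0.067), 608 (0.0545) or 657 (0.07). The *Ndufv2* call was lost without C/C mouse 593 (0.0601) or 638 (0.0516) or T/T mouse 607 (0.0528).

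The part of the core that leads to ubiquinone also held a fall and a rise. *Ndufs8*, an iron-sulfur subunit, had 247, 269, 279 and 171 in C/C and 336, 335, 462, 334 and 567 in T/T. Every C/C value was below every T/T value (-0.74 ± 0.22, adjusted p = 0.0203), though the call was lost without C/C mouse 638 (0.0599) or T/T mouse 658 (0.0506). *Ndufs3*, a structural core subunit of the matrix arm, had 747, 809.5, 959 and 1101 against 503, 431, 607, 398 and 598. It rose in C/C with no overlap (0.84 ± 0.19, adjusted p = 0.00649). *Ndufs7*, which carries the last iron-sulfur cluster before ubiquinone, had 1194, 746, 1006 and 826 against 1038, 959, 1026, 1076 and 1068. Its C/C libraries lay on both sides of the T/T libraries (-0.15 ± 0.18, adjusted p = 0.526).

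Exact two-sided permutation tests of the mean log2 value gave p = 0.0159, the smallest that 126 groupings allow, for *Ndufv1*, *Ndufs1*, *Ndufs3* and *Ndufs8* in WAT. The exact permutation p was 0.0317 for *Ndufv2* and 0.286 for *Ndufs7*.

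The largest differences were falls of 4 small accessory subunits of the membrane arm, between 7.39-fold and 13.7-fold. *Ndufb1* had 18.8, 2.81, 10.8 and 9.37 in C/C and 328, 44.8, 42.4, 148 and 446 in T/T. The C/C values rest on 3 to 16 reads per library, and the T/T mice 608 and 609 stood well below the other T/T mice. The groups did not overlap, and the log2 fold change was -3.77 ± 0.73 (adjusted p = 0.00344). *Ndufa8*, a subunit of the intermembrane-space face, had 20.0, 13.1, 16.3 and 16.4 against 289.7, 123, 71.4, 303 and 405. Its C/C values were close together and all under the lowest T/T value, with an 11.6-fold difference (-3.54 ± 0.43, adjusted p = 0.000508). *Ndufa1*, a single-span membrane subunit, had 22.3, 6.55, 15.2 and 5.86 against 251, 56.4, 51.4, 154 and 374. It was lower in every C/C library, again with mice 608 and 609 lowest among T/T (-3.51 ± 0.59, adjusted p = 0.00157). *Ndufb3*, a membrane-arm subunit, had 134, 31.8, 72.6 and 30.5 against 549.8, 289, 199.8, 440.3 and 906. The highest C/C library, mouse 590, was under the lowest T/T library, mouse 609 (-2.89 ± 0.49, adjusted p = 0.00172). The size of the fall in such low counts depends on the pseudocount, and with a pseudocount of 10 in place of 1 the log2 fold change was -2.91 for *Ndufb1* and -2.77 for *Ndufa1*, both still called.

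*Ndufb8*, a distal membrane-arm subunit, had the lowest p of all members. Its values were 533, 252, 303 and 218 in C/C and 1097, 1353, 1359.7, 1332 and 1685 in T/T. The C/C libraries were all under 600 and the T/T libraries all over 1000, which gave a 4.40-fold lower value (-2.14 ± 0.24, adjusted p = 0.000366). *Ndufc2*, of the proximal membrane arm, ranged from 197 to 289 in C/C and from 478 to 786 in T/T (-1.44 ± 0.19, adjusted p = 0.000656). *Ndufa7*, a matrix-arm subunit, ranged from 124 to 303 against 563 to 826 (-1.54 ± 0.25, adjusted p = 0.00127). Neither of these showed any overlap between the groups.

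The 5 largest rises among accessory subunits were smaller than the 5 largest falls and came from abundant transcripts. *Ndufa5*, a matrix-arm subunit, had 4043, 4363, 5414 and 7638 in C/C and 2185, 2641, 3343, 1682 and 3402 in T/T. All C/C libraries were above all T/T libraries, with a 2.03-fold difference (1.02 ± 0.26, adjusted p = 0.0117). *Ndufs6*, a zinc-binding subunit needed late in assembly, had 4443, 4297, 3325 and 3539.6 against 1515, 2760.0, 2165, 1504 and 2561. The groups were apart (0.93 ± 0.23, adjusted p = 0.00982). *Ndufa2*, a thioredoxin-like subunit, had 10539, 9762, 7648 and 9899 against 4039.8, 6914, 6312, 4350.3 and 4639. Its lowest C/C library, mouse 599, stayed above the highest T/T library, mouse 608 (0.87 ± 0.23, adjusted p = 0.012).

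*Ndufa13* (GRIM-19) and *Ndufc1* rose less. *Ndufa13* had 2248, 2419, 3051 and 3041 in C/C and 1527, 1635, 2434, 1244 and 2055 in T/T. T/T mouse 609 overlapped the C/C libraries, and the change of 0.62 ± 0.22 was just past the threshold (adjusted p = 0.0476). Its adjusted p was between 0.0533 and 0.119 without C/C mouse 593, 599 or 638 or T/T mouse 607, 608, 657 or 658. *Ndufc1* had 2649, 2798, 2482 and 2754 against 1524, 1847, 2081, 1464 and 2013. Its C/C values lay close together above the T/T values (0.59 ± 0.18, adjusted p = 0.0252). The *Ndufc1* call was lost without C/C mouse 638 (0.0517) or T/T mouse 607 (0.0654) or 657 (0.0649).

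**Figure D2:**
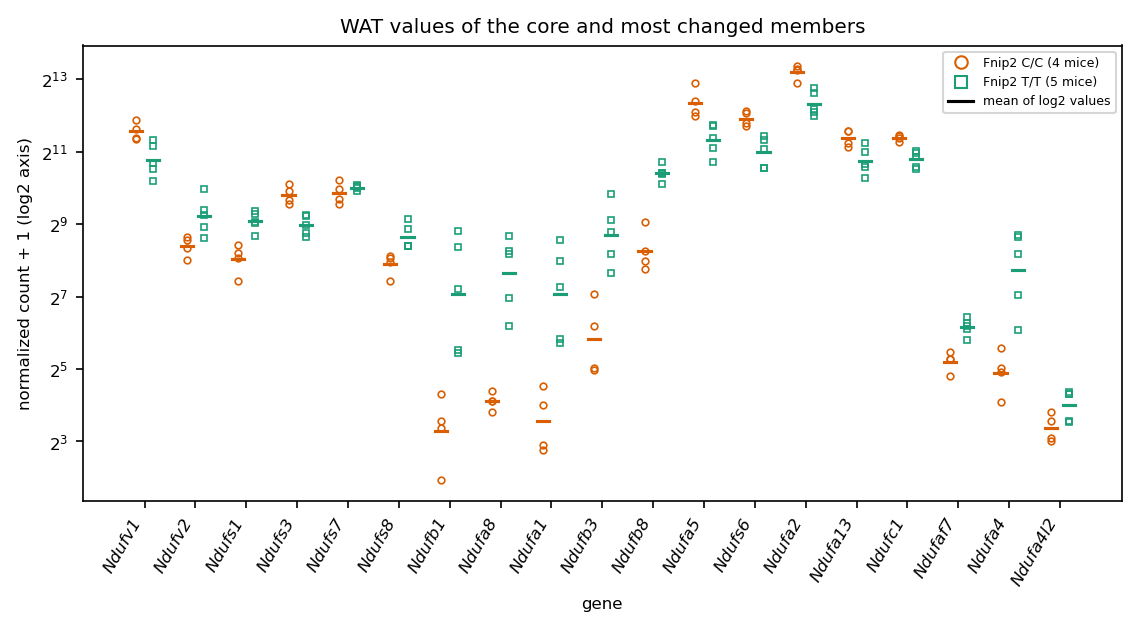
Normalized count plus 1 (log2 axis) of 19 genes in each WAT library, C/C mice as circles and T/T mice as squares, with a line at the mean of the log2 values of each group. Ndufb1, Ndufa8 and Ndufa1 reach 22.3 at most in C/C and start at 42.4 in T/T, and Ndufa2 is the most abundant gene shown.

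The remaining called subunits fell by less. In the proximal membrane arm *Ndufa10*, a nucleoside kinase-like subunit, ranged from 402 to 843 in C/C and from 1227 to 1819 in T/T (-1.11 ± 0.23, adjusted p = 0.00369). *Ndufa3* ranged from 423 to 743 against 905 to 1441 (-0.98 ± 0.20, adjusted p = 0.00387). In the distal arm *Ndufb11* ranged from 112 to 312 against 376 to 636 (-1.17 ± 0.27, adjusted p = 0.00685), and *Ndufb4* from 166 to 408 against 484 to 699 (-1.04 ± 0.24, adjusted p = 0.0063). All 4 had C/C libraries below every T/T library.

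The smallest called falls were those of *Ndufb10* (-0.64) and *Ndufb6* (-0.51) in the distal arm and of *Ndufa9*, which sits near the ubiquinone pocket (-0.57), and *Ndufv3* (-0.49) in the matrix arm. Of these only *Ndufb10* had overlapping groups, 452 to 836 in C/C and 795 to 1143 in T/T. All 4 calls were lost without C/C mouse 593, 638 or T/T mouse 658. Without mouse 593 the adjusted p was 0.0554 for *Ndufa9*, 0.104 for *Ndufb6*, 0.0902 for *Ndufb10* and 0.121 for *Ndufv3*. Those of *Ndufb6*, *Ndufb10* and *Ndufv3* were also lost without T/T mouse 607, 608 or 609, those of *Ndufb6* and *Ndufv3* without T/T mouse 657, and that of *Ndufv3* without C/C mouse 590.

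The 12 subunits that were not called included *Ndufab1*, the acyl carrier protein shared with fatty acid synthesis (-0.45, adjusted p = 0.0995), and *Ndufa11* (0.50, 0.0837). *Ndufa6* (-0.46), *Ndufb7* (-0.40), *Ndufb5* (-0.37), *Ndufb2* (-0.31) and *Ndufs4* (-0.21) had negative estimates and *Ndufb9* (0.39) a positive one. The estimates of *Ndufa12* (0.0044) and *Ndufs5* (0.20) changed sign with other scalings or tests.

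*Ndufa4*, long named as a complex I subunit and since placed with complex IV, had 47.0, 15.9, 31.4 and 29.3 in C/C and 287, 131, 67.0, 413 and 399 in T/T. It fell 7.10-fold with no overlap (-2.83 ± 0.50, adjusted p = 0.00203), and mouse 609 was again the lowest T/T library. *Ndufa4l2*, its hypoxia-responsive paralog, was close to the filter, with 12.9, 7.49, 10.8 and 7.03 against 18.9, 19.5, 19, 10.9 and 10.6. Its groups overlapped (-0.66 ± 0.38, adjusted p = 0.196). *Ndufs6b* had at most 5.86 in C/C, with 0 in mouse 593, and between 9.85 and 16.7 in T/T, and it was not tested in WAT.

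Of the 8 assembly factors tested in WAT 1 was lower (12.5%) and 0 were higher in C/C, near the 17% of all genes called lower. All 8 estimates were negative (median -0.36, range -0.96 to -0.17), where 49.2% of all genes tested had a negative estimate. The called gene, *Ndufaf7*, encodes a mitochondrial methyltransferase. It had 27.1, 37.4, 43.4 and 37.5 in C/C and 67.3, 54.5, 72.6, 76.4 and 85.6 in T/T. The groups were apart, and the change was -0.96 ± 0.23 (adjusted p = 0.00724). *Ndufaf4* also had separate groups but did not pass (-0.36, adjusted p = 0.0991), and the remaining 6 overlapped. The difference between subunits and assembly factors was not tested.

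**Figure D3:**
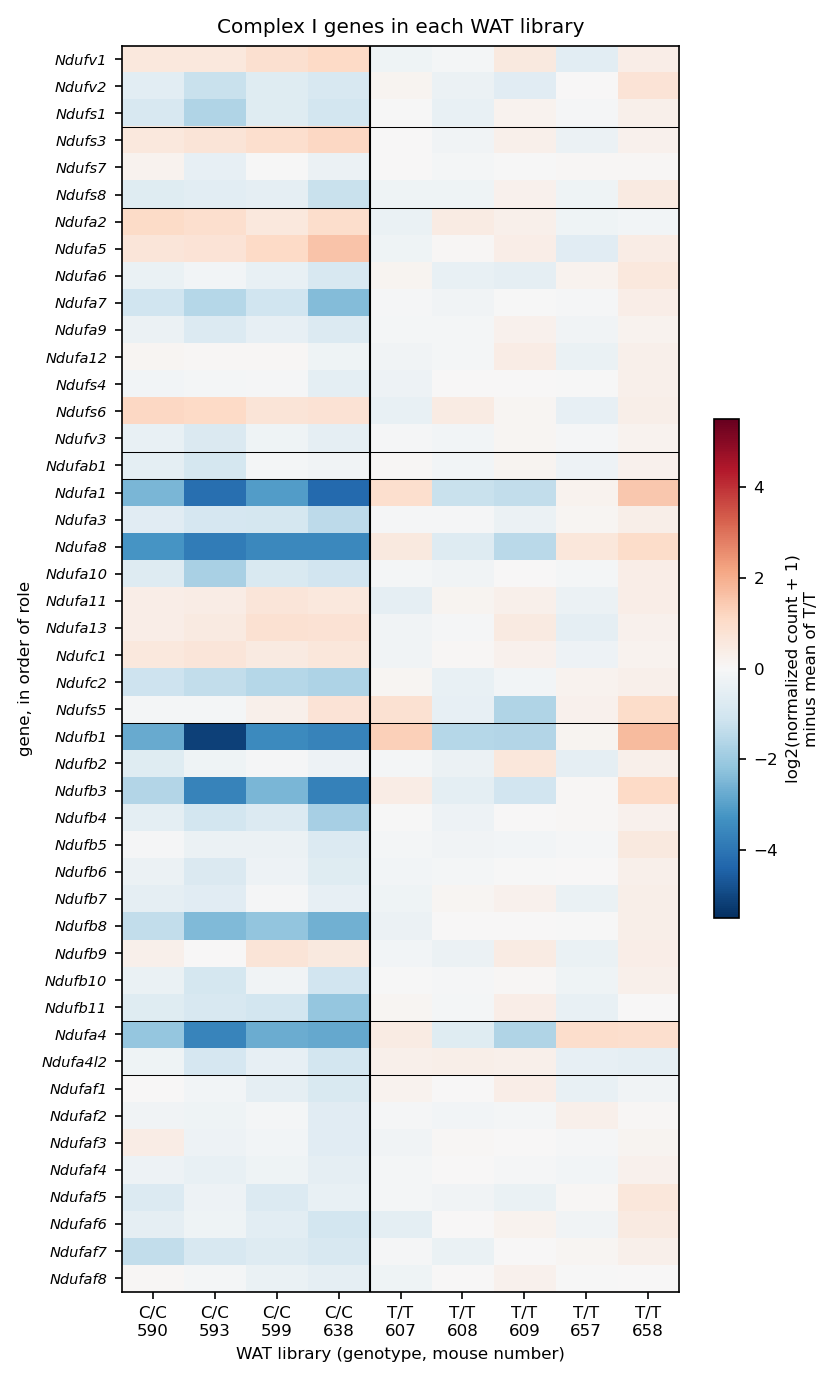
Each cell gives log2(normalized count + 1) of a gene (46 rows, in order of role) in a WAT library (4 C/C and 5 T/T columns) minus the mean of the T/T libraries, blue for lower and red for higher. Ndufa1, Ndufa8, Ndufb1, Ndufb3, Ndufb8 and Ndufa4 are blue in all 4 C/C libraries, palest for Ndufb8 and Ndufb3 in mouse 590. T/T mice 608 and 609 are also blue for all of these except Ndufb8, in part as dark as those palest cells.

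Within T/T the libraries kept a pattern over the members called. Among the 21 members called lower in C/C, mouse 658 was the T/T library farthest from C/C in 18, and mouse 608 was among the 2 nearest to C/C in 19. Among the 7 members called higher, mouse 657 was the farthest in 6, and mice 609 and 658 were each among the 2 nearest in 6. These counts describe 5 libraries over genes chosen by their call.

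Despite the falls, summed subunit RNA overlapped between the genotypes. The summed normalized count of the 39 subunits lay between 41707 and 46628 in C/C and between 33369 and 47630.0 in T/T. As a share of all normalized counts it was 0.893% to 0.963% in C/C and 0.776% to 1.00% in T/T. Each library's median distance from the T/T mean was -0.81 to -0.33 log2 units in C/C and -0.16 to 0.32 in T/T, with no overlap. Falls came from subunits with a median of 467 normalized counts over the WAT libraries, and rises from subunits with a median of 2375.

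Across the 39 subunits the WAT change rose with the gene's mean log2 normalized count in WAT (Spearman rho = 0.69), while over all 12798 genes tested rho was 0.10. With the level in liver, measured in libraries that do not enter the change, rho was 0.30 for the subunits and -0.17 for 12166 genes with a liver value. These counts are not divided by length, the points share the same libraries, and the WAT level and the change use the same values. The correlation with transcript length was 0.12 over 38 subunits and with the GC content of the last 300 bases 0.28, against 0.14 and 0.05 over 11322 genes.

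The T/T means of the subunits in WAT were also set beside those in liver, each on the scale of its own table. In T/T mice the mean normalized count was higher in WAT than in liver for all 7 subunits called higher in C/C, and lower in WAT than in liver for 19 of the 20 called lower. For the 12 not called, WAT was higher in 5 and lower in 7. The tables were normalized separately, so this order depends on their scales, and some means were close. *Ndufv1* had T/T means of 1829 in WAT and 1765 in liver, and *Ndufs1* had 550 and 598. The T/T libraries enter the calls, the order was not counted over all genes, and no test was made. Of the called genes, *Ndufa5* had T/T means of 2651 in WAT and 2502 in liver, and *Ndufb1* had 202 and 463.

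**Figure D4:**
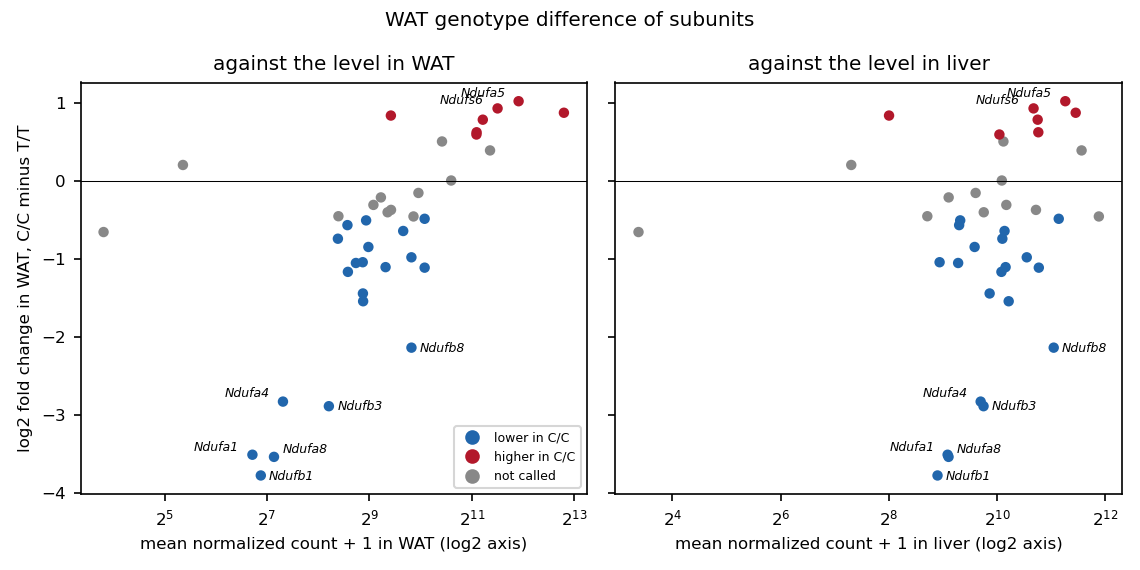
Log2 fold change of 39 subunits in WAT (C/C minus T/T) against the mean normalized count plus 1 (log2 axes) in WAT on the left and in liver on the right, coloured by the WAT call. The 6 subunits under -2, Ndufa4 of complex IV among them, lie at low WAT counts except Ndufb8. Spearman's rho is 0.69 on the left and 0.30 on the right.

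Liver showed no such pattern. None of the 47 members passed the test there, and none reached an unadjusted p under 0.05. Over all 11710 genes tested in liver limma called 0 (0%), and edgeR and DESeq2 called 0 as well. With limma 231 genes (1.97%) had an unadjusted p under 0.05, and 0 of 47 members is near that share. The subunit changes had their median at 0.04 and ran from -0.05 to 0.17, and 30 of 39 estimates were positive and 9 negative. Over all liver genes tested 48.2% of estimates were negative, and the median was 0.0072. No member had separate groups, where 0.248% of all genes did. The SEs of the members lay between 0.11 and 0.25, so that changes of the size of *Ndufb1* or *Ndufb8* in WAT would have been many times the error.

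The 3 liver members with the lowest p were *Ndufaf6*, *Ndufb6* and *Ndufa9*, none of them called. In liver the order is C/C mice 590, 591, 592, 638 and 639 and then T/T mice 607, 608, 657, 658 and 659. *Ndufaf6*, an assembly factor, had 120.0, 113, 107, 121 and 101 in C/C and 97.2, 93.7, 90.2, 113 and 78.0 in T/T. The groups overlapped through T/T mouse 658, and the change was 0.26 ± 0.14 (unadjusted p = 0.0775 with limma). *Ndufb6* had 629.6, 671, 627, 752 and 694 against 627, 648, 518, 693 and 516, with overlap (0.17 ± 0.12, unadjusted p = 0.159). *Ndufa9* had 619, 608, 632, 689 and 769 against 588, 592, 605, 627 and 562, with T/T mouse 658 inside the C/C range (0.15 ± 0.11, unadjusted p = 0.176).

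The members with the largest WAT falls had overlapping groups in liver. *Ndufb1* ranged from 399 to 588 in C/C livers and from 306 to 572 in T/T livers. *Ndufa8* ranged from 519 to 629 against 396 to 714, and *Ndufb3* from 714 to 977 against 627 to 1073. *Ndufb8* lay between 1885 and 2622 against 1659 and 2421. The core subunit *Ndufv1* lay between 1464 and 1899 in C/C livers and between 1343 and 2551 in T/T livers, and *Ndufs3* between 234 and 287 and between 205 and 382. The T/T range was the wider one for *Ndufv1* and *Ndufs3*. For the core subunits in liver the exact permutation p lay between 0.246 for *Ndufs1* and 0.929 for *Ndufs8*, where 252 groupings allow 0.00794 at the smallest.

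The difference between the tissues was tested itself, as the WAT effect minus the liver effect in a fit of all 19 libraries over 10404 genes. Of the 46 members in that fit 22 were lower and 6 higher in WAT, against 17.7% and 11.5% of all genes. With mouse as a replicate block, which pairs the 6 mice that gave both tissues, 26 members were called in place of 28. The calls lost with the block were those of *Ndufv1* (adjusted p = 0.0501) and *Ndufb10* (0.0561). *Ndufb8* had a difference of -2.25 ± 0.28 (adjusted p = 2.11e-05), *Ndufa8* -3.68 ± 0.48 (5.01e-05) and *Ndufs1* -1.15 ± 0.24 (0.0014). Among rises *Ndufa5* had 1.07 ± 0.31 (0.0127) and *Ndufs6* 0.94 ± 0.26 (0.0108). *Ndufa13* did not pass (0.64 ± 0.27, adjusted p = 0.0741). *Ndufaf6*, called in neither tissue alone, passed with -0.84 (adjusted p = 0.0286).

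The complex I subunits encoded by mitochondrial DNA also had calls in both directions. Of the 7 *mt-Nd* genes 1 was lower and 3 were higher in C/C WAT, where 17% of all genes were lower and 15.1% higher, and 0 were called in liver. *mt-Nd4*, a proton-pump subunit, changed by -1.56 ± 0.38 (adjusted p = 0.00857), *mt-Nd3* by 1.44 ± 0.28 (0.00285) and *mt-Nd6* by 1.11 ± 0.28 (0.0104). Summed over the 7 genes the normalized count lay between 133125 and 235971 in C/C and between 286110.0 and 547017 in T/T, with no overlap. Most of that gap came from *mt-Nd4*, with means of 85894 in C/C and 240092 in T/T. The next most abundant, *mt-Nd1* and *mt-Nd2*, were not called (limma adjusted p = 0.325 and 0.164). *mt-Nd6* was low, with means of 42.3 in C/C and 19.1 in T/T. Of 13 further assembly factors tested, whose names do not start with *Nduf*, 4 were lower and 3 higher in C/C WAT, and lists as short as these cannot be placed closely against the shares over all genes. *Foxred1*, which works in the late steps of assembly, changed by -2.67 ± 0.48 (0.00189), *Ecsit* by -2.01 ± 0.40 (0.00324) and *Tmem70* by -1.48 ± 0.31 (0.00408).

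Calls in other lists of the respiratory chain are read against the same 17% lower and 15.1% higher over all WAT genes. In complex V 8 of 17 genes were lower and 2 higher, and in complex IV 5 of 13 were lower and 1 higher. Complex III, with 2 of 9 lower and 1 higher, was near the shares over all genes, and complex II, with 1 of 3 lower, holds too few genes to be read against them. Of the iron-sulfur assembly genes, which supply clusters to complex I, 6 of 13 were lower and 2 higher, and of outer membrane and import genes 7 of 12 were lower and 0 higher. Of 9 regulators of nuclear respiratory genes tested only *Esrra* was called (-0.82 ± 0.23, adjusted p = 0.0182), which is no more than the share over all genes. Of 5 genes for other routes to ubiquinone 1 was lower (*Sqor*, -2.46 ± 0.49) and 1 higher (*Etfdh*, 1.15 ± 0.25). None of these lists had a called gene in liver.

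**Figure D5:**
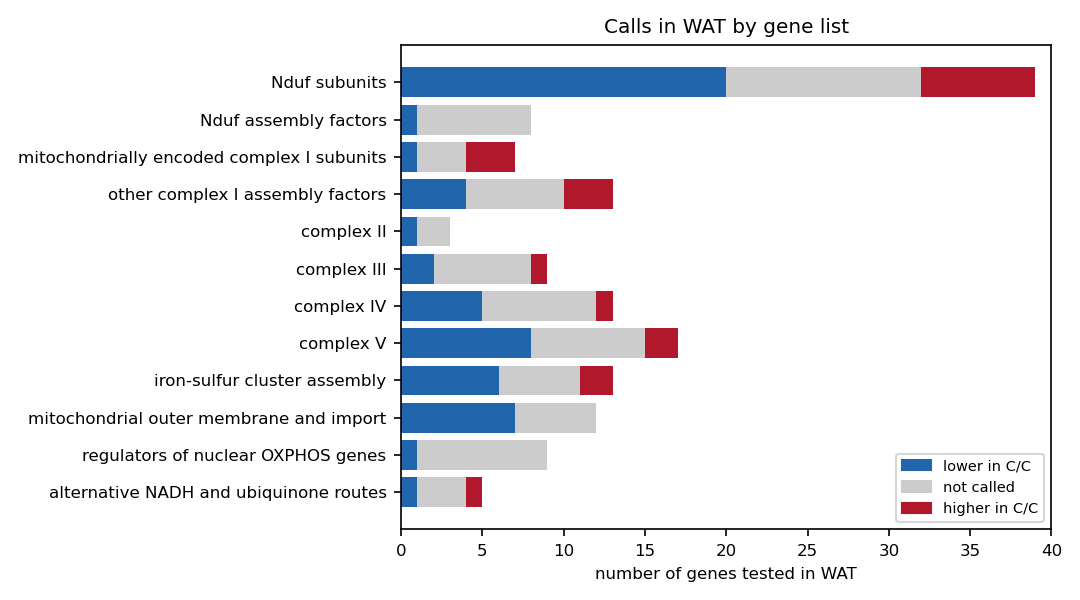
Number of genes tested in WAT in each list (bar length), split into those called lower in C/C (blue), not called (grey) and higher in C/C (red). Nduf subunits show 20 lower, 12 not called and 7 higher, and complex V shows 8, 7 and 2.

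Promoters of the members were read from RefSeq (GRCm38.p6, 250 bases before to 50 after the start), where 41 of the 48 matched by symbol. The windows below show the motifs of 2 factors known for nuclear respiratory genes, in genes that fell, genes that rose and a gene not called. GCGCATGCG, the core of the NRF1 motif, was searched on both strands and overlaps its own reverse complement CGCATGCGC in 8 bases. It was present in 4 of the 41 members (*Ndufa8*, *Ndufa11*, *Ndufaf4* and *Ndufaf5*, 9.76%) and in 1.95% of all 27025 symbols with a promoter. AAGATGGCG, a YY1 motif with different letters, was searched in the same way and was present in 6 (*Ndufs7*, *Ndufa9*, *Ndufs4*, *Ndufs6*, *Ndufc1* and *Ndufaf8*, 14.6%) and in 1.64% of all symbols. Each window has 30 bases on the gene's strand, and capitals mark the motif.
Ndufa8 (chr2:36049328-36049357, minus strand, fell in WAT): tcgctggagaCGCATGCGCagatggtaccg
Ndufa11 (chr17:56717692-56717721, plus strand, not called): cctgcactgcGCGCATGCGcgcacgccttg
Ndufs6 (chr13:73328433-73328462, minus strand, rose in WAT): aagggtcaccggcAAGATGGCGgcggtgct
Ndufc1 (chr3:51408914-51408943, minus strand, rose in WAT): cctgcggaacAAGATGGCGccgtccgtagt
Ndufa9 (chr6:126849096-126849125, minus strand, fell in WAT): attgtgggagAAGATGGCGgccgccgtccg
Of the 4 members with the NRF1 letters 1 was lower in C/C WAT and 3 were not called. Of the 6 with the YY1 letters 1 was lower, 2 higher and 3 not called. TCAAGGTCA, an estrogen-related receptor motif searched likewise, was in 0 of the 41 and in 0.466% of all symbols, and ACCGGAAGT, an ETS motif, was in 1 (*Ndufs3*, 2.44%) and in 1.21%. Such a match is a description of these letters only.

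Reads at the 3′ end can be shared with other genes. In the last 300 bases of the principal transcript in GENCODE vM21, 12 of 46 members had at least 1 stretch of 50 bases that also occurs in a transcript of another gene, and 3 had it in over 50% of the stretches. These were *Ndufb6* (82.9%, with *Smim27*), *Ndufs5* (54.6%) and *Ndufs3* (53.0%), and their values are less certain than those of other members. *Ndufb8* shared 31.1%, *Ndufaf7* 29.9% and *Ndufb3* 19.1%, and *Ndufa1*, *Ndufa8*, *Ndufa4* and *Ndufa5* shared 0. *Ndufb1*, which had the largest fall, and *Ndufs6b* had no matching transcript and were not searched.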

How the data were processed

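Signal values, counts per gene divided by a library size factor, were deposited by the authors in 1 table per tissue, normalized separately. The submitters' processing notes name FastQC 0.11.9, HISAT2, SAMtools 1.12, HTSeq, DESeq2 and the build GRCm39. The labels list 4 sequencing runs per mouse and tissue, which share 1 column, so that 19 libraries were used, and 1 WAT column with no label was not used. Low values stepped in whole reads, and 100% of values came out whole within 1e-06 of a read. Input was 500 ng RNA for WAT and 250 ng for liver.

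Genotypes were compared within each tissue by limma 3.58.1 (R 4.3.3, trend and robust) on log2(normalized count + 1) for genes with a mean of at least 10, with p-values adjusted over all genes of the tissue. A fold change on this scale understates that of low genes. The WAT effect minus the liver effect was tested in 1 fit of both tissues. Count tests on the recovered reads called 4153 WAT genes with edgeR 4.0.16 and 4722 with DESeq2 1.42.0, against 4111 with limma. Other alternatives were the pseudocount, the filter, quantile and total scaling, library weights, a term for mouse numbers 590 to 609 against 638 to 659, a replicate block and leaving out each library. The limma script was tested on simulated data.

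Library values are given for nuclear core subunits, the 5 accessory subunits with the largest falls and the 5 with the largest rises in WAT, *Ndufaf7*, *Ndufa4*, *Ndufa4l2* and the 3 liver members of lowest p. Lists are given by counts with at most 3 genes of lowest p, apart from *Cfd*, *mt-Nd1* and *mt-Nd2*, named for their weight in a sum. 1 member entered the counts but its own values are not reported here. The members, roles and lists were chosen with earlier results of these data known. The labels show that 6 mice gave both tissues, and the deviations of a mouse's libraries from their group means correlated between -0.203 and 0.156 over 10404 genes. The p-values of each tissue measure the spread between mice.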

Additional observations from a re-analysis of the deposited data

Results flagged for a closer look

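The genotype effect differed between WAT and liver, by the test of that difference, in 28 members, and the values here are the log2 effect in WAT minus that in liver. Among core subunits it was -1.15 for *Ndufs1*, -0.89 for *Ndufv2* and -0.75 for *Ndufs8*, and it was positive for *Ndufv1* (0.83) and *Ndufs3* (0.80). In the matrix arm it was -1.63 for *Ndufa7*, -0.72 for *Ndufa9* and -0.58 for *Ndufv3*, and 0.89 for *Ndufa2*, 1.07 for *Ndufa5* and 0.94 for *Ndufs6*. In the proximal membrane arm it was -3.49 for *Ndufa1*, -3.68 for *Ndufa8*, -1.55 for *Ndufc2*, -1.15 for *Ndufa10* and -0.997 for *Ndufa3*, and 0.57 for *Ndufc1*. In the distal membrane arm the 7 differences called were negative, at -3.88 for *Ndufb1*, -2.89 for *Ndufb3*, -2.25 for *Ndufb8*, -1.29 for *Ndufb11*, -1.09 for *Ndufb4*, -0.68 for *Ndufb6* and -0.64 for *Ndufb10*. Outside the arms it was -2.78 for *Ndufa4*, -0.84 for *Ndufaf6* and -0.98 for *Ndufaf7*. With mouse as a replicate block *Ndufv1* and *Ndufb10* did not pass.

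One library stood apart within its group. *Ndufs1* in the liver of T/T mouse 608 had 528 normalized counts, far below the other T/T livers relative to their spread. This was 1 of 68 groups looked at, where chance gives about 1 in 20.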

How the results depend on the processing

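The direction of the subunit median in WAT held in every alternative run (-0.63 to -0.43), as did the 0 calls in liver. Leaving out 1 library at a time gave 14 to 20 subunits lower, 4 to 7 higher and 20 to 29 members differing between tissues, where the lowest numbers of subunits lower and of members differing (14 and 20) came without C/C mouse 638. Assembly factors called lower numbered 2 with library weights. Of the 28 called members 19 kept their call under every alternative, 15 lower and 4 higher (*Ndufs3*, *Ndufa2*, *Ndufa5* and *Ndufs6*). *Ndufa13* lost it in most of them, edgeR (adjusted p = 0.0611) and quantile scaling (0.119) included. The log2 fold change of *Ndufa12*, not called, was -0.16 with quantile scaling, -0.072 with equal totals, -0.022 with the mouse number term, -0.043 in edgeR, -0.017 in DESeq2 and from -0.087 to 0.11 with 1 library left out. That of *Ndufs5*, not called, was -0.11 with library weights, -0.069 in edgeR, -0.032 in DESeq2 and from -0.21 to 0.45 with 1 library left out, negative without T/T mouse 609. The cause of these changes was not tested. With the replicate block 26 members differed between tissues, and the block was not fitted within a tissue, where each mouse gave 1 library. A liver term for even against odd RNA numbers, chosen after seeing the data, left 0 calls and a subunit median of 0.02. Depth limits the lowest values: *Ndufb1* rests on 3 to 16 reads in C/C WAT libraries, and intervals for such counts are not given.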
